A study of Rattus norvegicus with 12 samples.

Results

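The genes described here are known targets of the tumour suppressor p53, followed in rat hepatoma cells treated with α-lipoic acid (α-LA) or thapsigargin. The list named 10 of them, *Ccng1*, *Cdkn1a*, *Mdm2*, *Aen*, *Sesn1*, *Btg2*, *Phlda3*, *Bbc3*, *Tp53inp1* and *Gadd45a*, and a probe was taken when its symbol in the platform annotation, or otherwise in the gene list supplied with the paper, was 1 of these. Of the 10 genes 9 had a probe, 1 each, among 14941 genes with a named probe on the array. *Bbc3*, the gene of the pro-apoptotic protein PUMA, matched no named probe and was not analysed here.

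The cells were FaO, a hepatoma line of the rat, and RNA was read on 12 Illumina RatRef-12 BeadChips, on which the brightness of a bead-bound probe reads the level of a transcript. There were 3 arrays of control cells, 7 of cells given 500 µM α-LA every day and harvested at 6, 18, 24, 30, 42, 48 and 72 hours, 1 array per time, and 2 of cells given a single dose of thapsigargin (TG), a blocker of the ER calcium pump and standard inducer of ER stress. The arrays of 18, 24 and 30 hours formed the early group and those of 42, 48 and 72 hours the late one. Time points thus take the place of replicates. This division is the study's own and came from a clustering of these same arrays. All treatments were done in medium with little serum, and each RNA was a pool of 3 wells.

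For TG the labels give 0.1 µM and the sample titles 18 and 24 hours, whereas the protocol in the labels names 6 and 18 hours, and the hours of the titles are used below. The sources used here give no harvest time for the controls. They do not say whether the 3 controls were separate cultures either, and p-values therefore reflect no more than the spread among these arrays, possibly a technical one.

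Values are the authors' quantile-normalized signals on a linear scale, which run from 88.3 to 55971 on every array with a median of 133 and still contain background. A signal of 150 was taken as the limit of background, and limma was run on the log2 signals of the 9193 probes, of 22523, with 3 or more arrays at that limit. All 9 measured p53 target genes passed this filter, 7 of them on all 12 arrays, *Tp53inp1* on 10 and *Cdkn1a* on 8. Albumin, transferrin and other liver genes were bright in these cells, with 8 of 11 measured hepatocyte markers at or above 150, although *Hnf4a*, *Apob* and *Apoa2* stayed below it on every array. Of 17 measured markers of macrophages, stellate cells, endothelium and bile ducts, 3 reached 150 on any array and the highest signal was 227. The summed signal of the hepatocyte markers was 94579 to 115317 in the controls, 64514 to 82596 in the early, 56820 to 79664 in the late and 45145 to 45882 in the TG arrays. It was thus lower in every treated group from 18 hours on, and its part in the results below was not tested. The markers did not all move together. Of 8 tested, 6 were lower in each of these groups (limma adjusted p under 0.05), as were 15.7% to 18.7% of all probes. *Tat* was instead higher on the log2 scale by 0.38 late and 0.50 with TG (limma adjusted p = 0.0406 and 0.015), and *Ahsg* passed in none. As these are bulk RNA samples, fewer cells with a transcript and less of it per cell cannot be told apart.

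p53 is a transcription factor that is held at a low level by the ubiquitin ligase MDM2 and is stabilized by DNA damage and other stresses. It binds a response element made of a pair of 10-base repeats and turns on genes that stop the cell cycle, repair DNA, restrain growth or lead to apoptosis, among them *Mdm2* itself, which closes a feedback loop. Several of these genes also answer to other factors, *Sesn1* to FOXO proteins and *Gadd45a* to the stress-responsive ATF4, so that a change in their RNA is not specific to p53.

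To see how far these genes share a p53 response element near the start, the 250 bases before each start site were taken from RefSeq (GRCr8). An entry matched 8 of the 10 genes (all but *Bbc3* and *Tp53inp1*). These stretches were searched for the 20-base p53 response element with no spacer between the repeats. The element is palindromic, so that 1 search covers both strands. The 3 closest matches belonged to *Ccng1*, *Cdkn1a* and *Aen*, and these promoters are printed from 5′ to 3′ on the strand of the gene with that of *Sesn1*, the gene that moved the other way. Capitals mark the best 20-base match.

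Ccng1, chr10:25684877-25685126, minus strand: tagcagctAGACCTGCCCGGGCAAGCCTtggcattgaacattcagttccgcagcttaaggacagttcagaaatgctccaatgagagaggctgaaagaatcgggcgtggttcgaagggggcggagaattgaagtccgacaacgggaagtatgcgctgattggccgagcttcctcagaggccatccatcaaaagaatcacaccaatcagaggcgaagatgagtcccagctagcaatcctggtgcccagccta

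Cdkn1a, chr20:7150682-7150931, plus strand: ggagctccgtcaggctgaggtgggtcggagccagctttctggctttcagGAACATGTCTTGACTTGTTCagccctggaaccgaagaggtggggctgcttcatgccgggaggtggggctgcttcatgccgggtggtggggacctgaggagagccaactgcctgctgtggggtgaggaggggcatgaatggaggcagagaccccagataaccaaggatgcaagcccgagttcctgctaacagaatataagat

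Aen, chr1:142224283-142224532, plus strand: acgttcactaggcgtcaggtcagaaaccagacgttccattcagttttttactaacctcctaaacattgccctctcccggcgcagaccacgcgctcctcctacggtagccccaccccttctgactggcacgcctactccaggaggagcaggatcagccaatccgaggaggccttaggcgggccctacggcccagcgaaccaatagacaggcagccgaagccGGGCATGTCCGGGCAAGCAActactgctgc

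Sesn1, chr20:46948469-46948718, plus strand: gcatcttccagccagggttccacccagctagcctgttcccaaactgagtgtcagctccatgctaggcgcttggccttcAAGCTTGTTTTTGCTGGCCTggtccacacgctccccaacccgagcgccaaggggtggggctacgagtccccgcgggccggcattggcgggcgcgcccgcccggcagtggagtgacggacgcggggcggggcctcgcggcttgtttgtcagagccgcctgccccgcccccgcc

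The match of *Ccng1* had 19 of 20 bases of the element and lay 242 to 223 bases before the start, and that of *Cdkn1a* also had 19, at 201 to 182 bases before the start. A window with at most 1 mismatch occurred in 20 of 33469 rat promoters, 0.0598%. *Aen* had 18 of 20 bases only 30 to 11 bases before its start, a match found in 0.72% of promoters. *Sesn1* had 17, a match that 5.22% of promoters reached, and *Gadd45a* 16, which 25.7% reached. The best windows of *Btg2*, *Mdm2* and *Phlda3*, with 15, 14 and 14 bases, were no closer than those of most promoters. The letters TGATGNAA, a core of the composite site of C/EBP and ATF factors, were in none of the 8 promoters on either strand (3.4% of all), and the CRE letters TGACGTCA were in that of *Btg2* alone (1.59% of all). A match is a description of letters and not of a bound site, and its absence from this window says nothing of the factor.

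**Figure D1:**
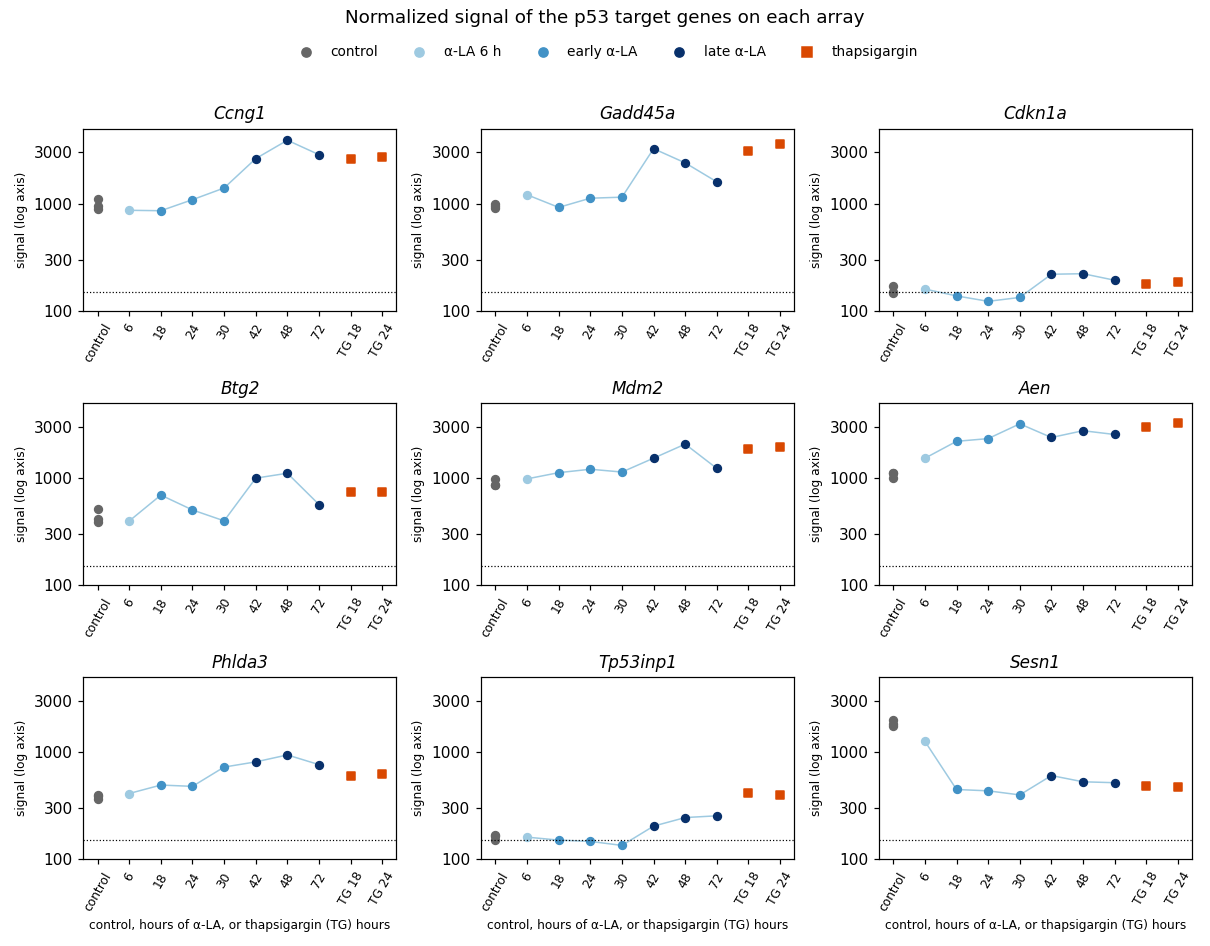
Normalized signal (log axis, arbitrary units) of the 9 measured p53 target genes on each of the 12 arrays: 3 controls, α-LA at 6 to 72 hours joined by a line (1 array per time), and TG at 18 and 24 hours, with the dotted line at the background limit of 150. Ccng1 and Gadd45a stayed near the controls to 24 hours and rose from 42 hours, Aen was above the controls from 6 hours, and Sesn1 fell to 399 at 30 hours from controls of 1732 to 1975.

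Among the genes of cell cycle arrest, *Ccng1* and *Gadd45a* rose late. The signal of *Ccng1*, which encodes cyclin G1, a partner of the phosphatase PP2A that also acts back on MDM2, was 1098, 899.8 and 958 in the controls. With α-LA it was 867 at 6 hours, 859 at 18, 1089 at 24, 1399 at 30, 2628 at 42, 3898 at 48 and 2859 at 72 hours. The first 3 times lay below the highest control, the array of 30 hours lay above all controls, and the 3 late arrays lay far above every earlier one, with a peak of 3.97-fold over the mean of the controls at 48 hours. The mean was 985 ± 102 (SD, n = 3) over the controls. It was 1116 ± 271 (SD, n = 3) over the early arrays and 3128 ± 676.5 (SD, n = 3) over the late ones.

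*Gadd45a*, whose product binds PCNA and CDK1 and takes part in repair and in the G2 checkpoint, had control signals of 942, 999.7 and 919.7. With α-LA it read 1210 at 6 hours, 923 at 18, 1124 at 24, 1149 at 30, 3252 at 42, 2398 at 48 and 1596 at 72 hours. It differed from *Ccng1* in where the peak lay, at 42 hours with 3.41-fold over the mean of the controls, and by 72 hours it was back at 1.67-fold, still above all controls. There was 1 array per time, so that the shape of a course has no replicate check.

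*Cdkn1a*, the gene of the CDK inhibitor p21 and the best known target of p53 in arrest, gave a dim signal. It was 151.5, 171 and 146 in the controls, 160 at 6 hours, 138 at 18, 123 at 24, 134 at 30, 219.9 at 42, 222.5 at 48 and 193 at 72 hours. The 3 early signals were below every control and below the limit of 150, and the 3 late ones above every control. *Btg2*, an antiproliferative gene whose protein recruits mRNA deadenylases, read 391, 518 and 413.5 in the controls. Its course with α-LA had 2 high stretches, 691 at 18 hours and 994 and 1104 at 42 and 48 hours, between 396 at 6, 502 at 24, 398 at 30 and 564 at 72 hours.

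*Mdm2*, the ligase of the feedback loop, read above all controls from 18 hours on. It read 978, 855 and 852 in the controls, 978 at 6 hours, 1118 at 18, 1203 at 24, 1133 at 30, 1525 at 42, 2063 at 48 and 1224 at 72 hours. Every α-LA array from 18 hours on exceeded every control, by the most at 48 hours with 2.31-fold over the mean of the controls, and the 72 hours array was again close to the early ones at 1.37-fold.

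The genes of apoptosis and survival followed 3 different courses. *Aen*, an exonuclease that digests DNA in apoptosis, stood furthest above the controls at 6 hours among the 9 genes. It read 993, 1108 and 1109 in the controls, 1523 at 6 hours, and then 2190, 2321, 3187, 2377, 2750 and 2535 at 18, 24, 30, 42, 48 and 72 hours. At 6 hours it stood at 1.43-fold of the control mean and outside the control range, as were 25.9% of all tested probes on the high side on that array. *Phlda3*, which competes with AKT for membrane lipids, read 394, 392 and 364 in the controls and 411, 493, 479, 725, 810.2, 940.2 and 764 at the 7 times, so that its step lay between 24 and 30 hours. *Tp53inp1*, which acts in autophagy and in the phosphorylation of p53, was dim, with 171, 167 and 151.4 in the controls. It lay just under the lowest control from 18 to 30 hours, with 151.2, 147 and 135, and reached 204, 245 and 255 at 42, 48 and 72 hours.

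*Sesn1*, of the sestrin family that restrains the growth kinase mTORC1, went the other way. From 1975, 1732 and 1812 in the controls it fell to 1260 at 6 hours, 448 at 18, 435 at 24 and 399 at 30 hours, and then read 604 at 42, 529 at 48 and 518 at 72 hours. At 6 hours it was at 0.686-fold of the mean of the controls and below their range, as were 28.6% of all tested probes, and from 18 hours on it lay between 0.217-fold at 30 hours and 0.329-fold at 42 hours.

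In the early group 2 of the 9 genes were higher than in the controls, *Aen* and *Phlda3*, 1 was lower, *Sesn1*, and 6 did not pass the test at an adjusted p under 0.05. Over all 9193 tested probes 16.6% were called higher and 15.7% lower, so that these counts are close to the background. *Aen* rose by 1.24 on the log2 scale (SE 0.14, limma adjusted p = 5.37e-05), from 1070 ± 67.1 (SD, n = 3) to 2566 ± 542 (SD, n = 3). *Phlda3* rose by 0.54 (SE 0.15, limma adjusted p = 0.0168), a call that was lost without control 3 (adjusted p = 0.0625). *Sesn1* dropped by 2.10 on the log2 scale (SE 0.10, limma adjusted p = 2.49e-07), which is 4.30-fold lower, from 1840 ± 124 (SD, n = 3) to 427 ± 25.5 (SD, n = 3). *Ccng1* and *Gadd45a* had log2 changes of 0.16 and 0.15 (limma adjusted p = 0.575 and 0.622), and without the array of 30 hours that of *Ccng1* was -0.02. The interval of these changes ran from -0.24 to 0.56 for *Ccng1* and from -0.29 to 0.60 for *Gadd45a*, so that a rise of the late size lies outside it. In 3 genes each, the early arrays lay above all controls (*Aen*, *Phlda3* and *Mdm2*) or below all of them (*Sesn1*, *Cdkn1a* and *Tp53inp1*), as did 23.3% and 21.5% of all probes. The median log2 change of the 9 genes was 0.16, against 0.01 over all tested probes.

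In the late group all 9 genes passed the test, 8 higher and 1 lower, where 19.1% of all tested probes were called higher and 17.7% lower. Their median log2 change was 0.96 against 0.02 over all probes, a description only, as the genes were chosen with earlier results of these data known. Each of the 9 genes kept its call under each alternative setting that could be run for it and without each array in turn. The largest rises were those of *Ccng1*, by 1.65 (SE 0.18, limma adjusted p = 3.36e-05), *Gadd45a*, by 1.28 (SE 0.20, limma adjusted p = 0.000442), *Aen*, by 1.25, and *Phlda3*, by 1.13. *Btg2* and *Mdm2* rose by 0.96 and 0.81 (limma adjusted p = 0.00954 and 0.00172). *Tp53inp1* and *Cdkn1a* rose by 0.52 and 0.44 (limma adjusted p = 0.00245 and 0.00491), sizes that background in the signal can understate, since they became 0.94 and 0.85 when each array's background was subtracted. *Sesn1* was 3.35-fold lower than in the controls (limma adjusted p = 5.75e-07). The 3 late arrays did not overlap the controls in any of the 9 genes, and over all probes 27.0% were higher and 24.2% lower in this sense.

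**Figure D2:**
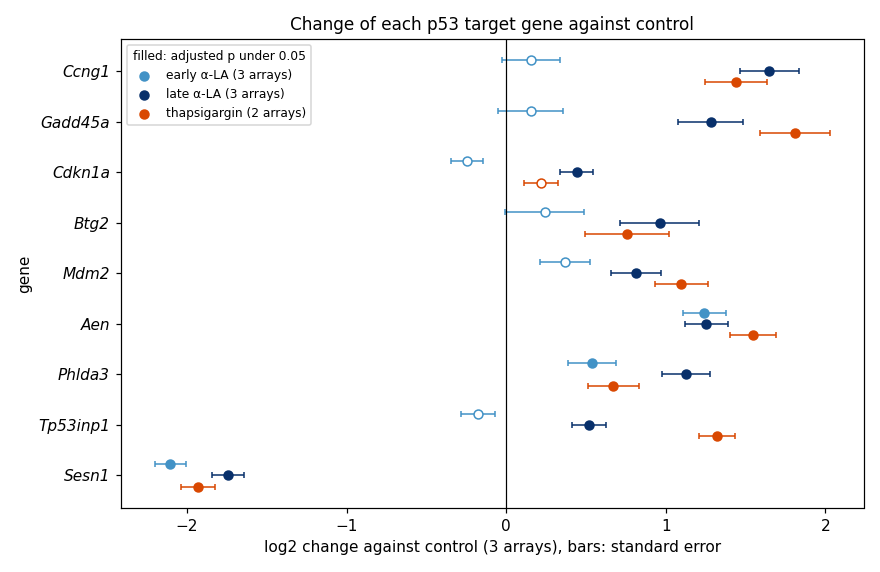
Log2 change against the 3 control arrays (horizontal axis) of each p53 target gene in the early α-LA (3 arrays), late α-LA (3 arrays) and TG (2 arrays) groups, with bars for the standard error and filled points where limma's adjusted p was under 0.05. Late points are filled in all 9 genes, early points in Aen, Phlda3 and Sesn1, and TG points in all but Cdkn1a.

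From the early to the late group 6 of the 9 genes rose, where 6.43% of all probes were called higher and 7.23% lower. The median log2 difference of the 9 genes was 0.69, against -0.002 over all tested probes, again a description only. This comparison does not rest on the control signals except for the estimate of the spread. *Ccng1* rose by 1.49 (95% interval 1.09 to 1.89, limma adjusted p = 0.00116) and *Gadd45a* by 1.13 (0.69 to 1.57, limma adjusted p = 0.00533). *Tp53inp1* rose by 0.70 and *Cdkn1a* by 0.69 (limma adjusted p = 0.00251 and 0.00215). *Cdkn1a* was below 150 on all 3 early arrays, so that its late mean is at least 1.41-fold higher, counted against 150. The rise of *Phlda3* by 0.59 (limma adjusted p = 0.0237) and that of *Sesn1* by 0.36 (limma adjusted p = 0.0322) were each lost without 1 of 4 arrays, those of 18, 24, 42 or 48 hours for *Phlda3* (adjusted p of 0.0632 to 0.0904) and those of 24, 30, 42 or 48 hours for *Sesn1* (0.0542 to 0.125). The late arrays lay above all early ones in 7 genes, all but *Aen* and *Btg2*, as they did in 14.8% of all probes, with 16.1% the other way. *Sesn1* thus remained far below the controls in both groups and was slightly less reduced in the late one.

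*Aen* had a difference of 0.01 between the groups (95% interval -0.29 to 0.31, limma adjusted p = 0.971), an interval that lies below that of *Ccng1*. *Btg2* and *Mdm2* had differences of 0.72 and 0.45 (limma adjusted p = 0.0778 and 0.0835). Without the array of 72 hours, on which both were low, these became 1.02 and 0.62 and passed (limma adjusted p = 0.00938 and 0.0126), and that of *Btg2* also passed without the 18 hours array (0.93, limma adjusted p = 0.041). A straight line over the 7 α-LA arrays was called for none of the 9 genes by limma at an adjusted p under 0.05. Of all probes, 0.0544% were called in this way. The steepest was that of *Ccng1*, 0.85 per 24 hours on the log2 scale (SE 0.17, limma adjusted p = 0.0661).

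TG raised 7 of the 9 genes and lowered *Sesn1*, where 19.2% of all probes were called higher and 18.7% lower. The groups compared with the controls share those 3 control arrays, so that the values are set side by side. *Gadd45a* read 3103 and 3604 with TG at 18 and 24 hours, a rise of 1.81 on the log2 scale (SE 0.22, limma adjusted p = 2.84e-05), beside 1.28 in the late α-LA group. *Aen* read 2997 and 3252 and rose by 1.55 (limma adjusted p = 3.9e-06), beside 1.24 early and 1.25 late. *Ccng1* read 2591 and 2736 and rose by 1.44 (SE 0.19, limma adjusted p = 7.16e-05), beside 0.16 early and 1.65 late. Both TG arrays thus lay above all early α-LA arrays for *Ccng1* and *Gadd45a*, and overlapped them for *Aen*.

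*Tp53inp1* read 414 and 399 with TG, above all 10 other arrays, and rose by 1.32 (SE 0.11, limma adjusted p = 2.18e-06), or by 2.06 with background subtracted, beside 0.52 in the late α-LA group. *Mdm2* read 1876 and 1942 and rose by 1.10 (limma adjusted p = 0.00018). *Phlda3* read 593 and 627.5, below each late α-LA array, and rose by 0.67 (limma adjusted p = 0.00442), beside 1.13 in the late group. *Btg2*, at 732.5 and 745, rose by 0.76 (limma adjusted p = 0.0366), a call that was lost without control 1 or 3 or either TG array (adjusted p of 0.0903 to 0.148). *Cdkn1a*, at 178 and 184, lay above all controls without passing (0.22, limma adjusted p = 0.131). *Sesn1* read 485 and 478 with TG and was 3.81-fold lower than in the controls (limma adjusted p = 7.82e-08), between the early and the late α-LA value. Neither TG array overlapped the controls in any of the 9 genes, and over all probes 32.6% were higher and 31.5% lower in this sense.

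**Figure D3:**
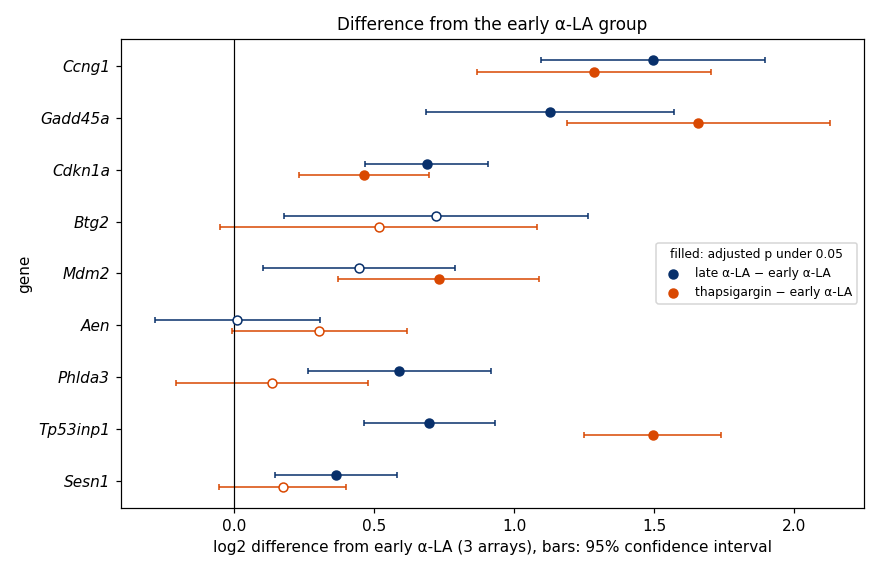
Log2 difference from the early α-LA group (3 arrays, horizontal axis) of each p53 target gene in the late α-LA (3 arrays) and TG (2 arrays) groups, with 95% confidence intervals and filled points where limma's adjusted p was under 0.05. Ccng1 and Gadd45a lie above 1 in both comparisons, Tp53inp1 lies at 0.70 late and 1.49 with TG, and the interval of Aen includes 0 in both.

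TG was also set directly against the early α-LA group, whose hours include those of the TG titles. By limma, TG gave higher signals in 5 of the 9 genes, where 13.6% of all probes were called higher and 13.9% lower. The 5 were *Gadd45a* with a difference of 1.66, *Tp53inp1* with 1.49, *Ccng1* with 1.28, *Mdm2* with 0.73 and *Cdkn1a* with 0.46 (limma adjusted p = 0.000152, 2.96e-06, 0.000399, 0.00559 and 0.00614). For *Cdkn1a* this is at least 1.21-fold, counted against 150, and its call and that of *Mdm2* were lost without the TG array of 24 hours (adjusted p = 0.0613 and 0.054). *Aen* had a difference of 0.30 (95% interval -0.01 to 0.62, limma adjusted p = 0.143), which became 0.47 and passed when the α-LA array of 30 hours was left out (limma adjusted p = 0.0109). *Phlda3* and *Sesn1* had differences of 0.14 (-0.21 to 0.48) and 0.17 (-0.05 to 0.40), neither past the test. The TG arrays lay above all early ones in 7 genes, all but *Aen* and *Phlda3*, where 26.4% of all probes did so in each direction. The doses of the compounds are not matched, and the hours of TG are uncertain.

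Regulators and kinases of p53 were read from a further list. Of 12 tested, 2 were higher and 3 lower early, 3 were lower late, and 1 was higher and 2 lower with TG. Over all probes, 16.6% were called higher and 15.7% lower early, 17.7% lower late, and 19.2% higher and 18.7% lower with TG. *Mdm4*, the partner of *Mdm2* that masks the activation domain of p53, had its highest signal at 18 hours, with 2154 against controls of 1010 to 1259 and 864 to 992 in the late group. It was higher in the early group by 0.50 (limma adjusted p = 0.0266) and lower in the late than in the early group by 0.81 on the log2 scale (limma adjusted p = 0.0069). *Chek2*, the checkpoint kinase that phosphorylates p53 after DNA breaks, was lower in all 3 groups, by 0.79, 1.13 and 0.96 on the log2 scale early, late and with TG. *Daxx*, a histone chaperone that binds MDM2, fell by 0.34 on the log2 scale both early and late (limma adjusted p = 0.0171 and 0.016). It read 202 to 211 in the controls and 148 to 178 on the early and late arrays, so that background limits this size. *Atm*, the kinase that answers DNA breaks, fell by 0.33 early and 0.29 late (limma adjusted p = 0.0188 and 0.0313). Its controls read only 156 to 159.8 and every early and late array lay under the background limit of 150, so that the size of this change cannot be given.

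Of 50 other genes that p53 is known to control, 34 had a probe and 23 were tested. Early on 3 rose and 7 fell, late 8 rose and 5 fell, and with TG 6 rose and 5 fell, with median log2 changes of -0.08, 0.01 and 0.04. The shares over all probes were 16.6% higher and 15.7% lower early, 19.1% and 17.7% late, and 19.2% and 18.7% with TG, so that several of these counts are near the background. From early to late 3 rose (*Abhd4*, *Bcl6* and *Apaf1*), where 6.43% of all probes were called higher and 7.23% lower. The call of *Apaf1* was close to the threshold (limma adjusted p = 0.0471). The median difference from early to late was 0.05, against 0.69 for the 9 genes described here. The 9 genes were chosen with earlier results of these data known, so that these medians are set side by side only as a description. *Gdf15*, a stress cytokine, had the largest late change of the list and rose by 3.44 early, 3.27 late and 2.47 with TG. *Pcna*, the sliding clamp of DNA replication, fell by 1.16, 1.43 and 1.29 on the log2 scale. *Crip2*, a LIM domain protein, rose by 1.26 early and 0.98 late and had 0.07 with TG (limma adjusted p = 0.802), and *Gtse1*, a G2 and S phase protein that counters p53, fell by 0.97 and 0.74 on the log2 scale early and late. *Bax*, the pore-forming apoptosis protein, was named after its values were seen. It read 143 to 149 in the controls, all under 150, and 255 and 323 with TG, higher by 0.97 (limma adjusted p = 0.00238). Background in the controls limits this size. The α-LA array of 24 hours read 259, in the range of TG, and those of 18 and 30 hours 144 and 147. The change was 0.26 in the early group and 0.31 in the late group (limma adjusted p = 0.332 and 0.222).

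**Figure D4:**
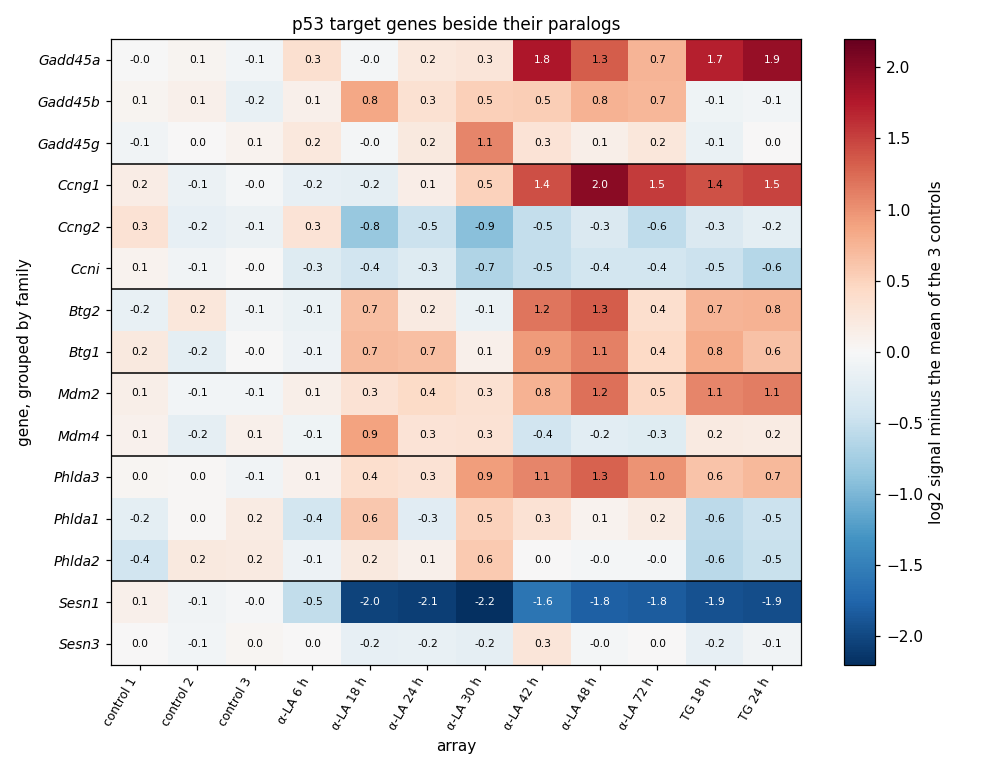
Log2 signal minus the mean of the 3 controls (colour, with the value in each cell) of p53 target genes and their paralogs on each of the 12 arrays. Gadd45a, Ccng1, Btg2, Phlda3 and Sesn1 move by more than 1 on the late arrays of 42 and 48 hours, and Mdm2 on that of 48 hours. Among the paralogs shown, only Gadd45g at 30 hours (1.08) and Btg1 at 48 hours (1.11) pass 1 in either direction. Isg20, a relative of Aen, is not shown.

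Of 15 tested paralogs of these genes, 3 were higher and 3 lower early, 4 higher and 2 lower late, and 3 higher and 4 lower with TG. These counts are near the shares over all probes just given. *Gadd45b*, a close relative of *Gadd45a*, rose by 0.57 early and 0.68 late and had -0.08 with TG (limma adjusted p = 0.703), where *Gadd45a* had its largest change. *Ccng2*, the relative of *Ccng1* that is known as a FOXO target, fell by 0.74 and 0.46 on the log2 scale early and late. *Btg1* rose by 0.83 late and 0.73 with TG and peaked at 48 hours like *Btg2*. *Isg20*, an RNA exonuclease related to *Aen*, rose by 1.03 late and 0.92 with TG and had 0.16 early (limma adjusted p = 0.641). *Sesn3*, whose early values lay under 150, was not called in any of these comparisons, and *Sesn2* stayed under 150 on all 12 arrays.

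Of 12 tested genes that p21 is known to lower through the DREAM repressor complex, 11 were lower in the early group, with a median log2 change of -0.95, 11 lower in the late group, with -1.61, and 9 lower with TG, with -0.80. From early to late 7 fell. Over all probes 15.7% were called lower early, 17.7% late and 18.7% with TG, and 7.23% from early to late. The largest late change was that of *Ccna2*, cyclin A, whose log2 change was -1.97 early, -3.14 late and -1.73 with TG. *Rrm2*, *Cdk1* and *Cdc20* followed with -2.95, -2.53 and -2.50 late. *Cdkn1a* itself, the gene of p21, was called higher than in the controls late, but not early or with TG. The part of p21 in these falls was not tested.

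Targets and regulators of ATF4 and CHOP, the stress factors that also act on *Gadd45a*, were higher in 8 of 11 tested genes early, 9 late and 10 with TG, with 1 lower late. *Ddit3*, the gene of CHOP, rose by 2.90, 3.19 and 4.52, *Trib3* by 2.25, 2.26 and 2.54, *Ppp1r15a* by 1.68, 2.22 and 2.92, and *Atf3* by 0.94, 2.11 and 2.41. From the early to the late group *Atf3* rose further, by 1.16 (limma adjusted p = 0.00799), as *Gadd45a* and *Ccng1* did. It was the only 1 of the 11 called there, where 6.43% of all probes were called higher. *Ddit3* and *Trib3* did not pass (0.29 and 0.00). Of 10 tested FOXO targets, *Sesn1* among them, 2 were higher and 4 lower early, 3 higher and 4 lower late, and 4 higher and 3 lower with TG. Over all probes 16.6% were called higher and 15.7% lower early, 19.1% and 17.7% late, and 19.2% and 18.7% with TG. The counts of FOXO targets higher early and late are close to these shares. Beside *Sesn1*, *Pck1* and *G6pc1* of glucose output had late log2 changes of -3.54 and -2.37, and *Igfbp1* had 1.73.

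Correlations were taken across the 12 arrays, which share the controls and the treatments with α-LA and TG. The log2 signals of *Mdm2* and *Gadd45a* ran closest among the 9 genes (Pearson's r = 0.900), followed by *Ccng1* and *Mdm2* (0.876) and *Ccng1* and *Phlda3* (0.870). *Sesn1* ran against all 8 others, the most against *Aen* (-0.957) and the least against *Cdkn1a* (-0.08). Of all named probes tested, those most like *Ccng1* over the 12 arrays were *Ctsb* and *Ap3s1* (both 0.967) and *RT1-CE15* (0.948). *Gadd45a* was most like *Gbp2* and *Saraf* (both 0.964) and *Fam229a* (0.958), and *Sesn1* most like *Anxa4* (0.982), *Hao1* (0.973) and *Hnrnpm* (0.972). These are descriptions over 12 arrays, without a test.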

How the data were processed

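RNA of 12 FaO samples was measured on Illumina arrays. Per the labels and the study's methods, the authors read the arrays in BeadStudio 3.0.19.0, analysed them in BRB-ArrayTools and quantile-normalized them, and the deposited intensity values are linear with background still in them. Quantile normalization gives every array the same distribution, which hides any change shared by all genes. A further 24 columns of values before normalization, whose names match no sample, were not used, so that no detection p-value could be used and a signal of 150 stood in for it.

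From the intensities, log2 signals were computed and tested with limma 3.58.1 (lmFit and eBayes) in R 4.3.3, with Benjamini-Hochberg adjustment over the 9193 probes that reached 150 on at least 3 arrays. Control, early and late arrays were fitted together (9 arrays), and TG in a fit of 4 groups (11 arrays). The slope over hours used the 7 α-LA arrays. A fold beginning "at least" sets the bright group against 150, because the dim group had no array at 150 for that gene. The fit was tested on simulated data, with a known set of changed probes, before it was run. The number of arrays limits the precision.

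Probes were named from the platform annotation (13793) or from the gene list supplied with the paper (1682, *Btg2* among them), and 7048 had no name. Named are all 10 genes of the list, up to 4 genes of each further list with the largest late change among those past the threshold in any comparison, and the 3 probes most like *Ccng1*, *Gadd45a* and *Sesn1*. The values of 1 gene are not reported here. Other genes named were chosen after their values were seen. The members, lists and promoter motifs were chosen with earlier results of these data known. The alternatives changed the filter on low signals, the background, the variance model, the arrays in the fit and the scale of time, and left out each array in turn.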

Additional observations from a re-analysis of the deposited data

Results flagged for a closer look

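The early and late α-LA groups differed in 6 of the 9 p53 target genes by limma's test of the difference. The log2 difference was 1.49 for *Ccng1*, 1.13 for *Gadd45a*, 0.70 for *Tp53inp1*, 0.69 for *Cdkn1a*, 0.59 for *Phlda3* and 0.36 for *Sesn1*, each higher in the late group. TG and the early α-LA group differed in 5 genes, with TG higher by 1.66 on the log2 scale for *Gadd45a*, 1.49 for *Tp53inp1*, 1.28 for *Ccng1*, 0.73 for *Mdm2* and 0.46 for *Cdkn1a*. The 4 genes that differed in both comparisons, *Ccng1*, *Gadd45a*, *Tp53inp1* and *Cdkn1a*, do so against the same early arrays. No group held 4 or more arrays, so that single arrays were not tested for standing apart.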

How the results depend on the processing

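Each of the 54 results on single genes, 9 genes in 6 comparisons, was recomputed under the alternatives, which gave 645 values. Of these 598 kept their direction and their side of the threshold, 20 lost the call, 21 gained it and 6 changed sign. Of 31 called results 25 held under each alternative run, among them all 9 of the late group against the controls. With each array left out in turn, the number of genes called was 2 to 3 early, 9 late each time, 4 to 8 from early to late, 7 to 8 with TG, 3 to 6 for TG against early α-LA and 0 to 2 for the slope over hours. For TG against early α-LA, 3 genes in place of 5 were called with a median signal over 300, which leaves out *Cdkn1a* and *Tp53inp1*, and 3 without the TG array of 24 hours. The slope was called for 1 gene with a median over 300, 1 with background subtracted, 1 with a trended and robust variance, 2 on log2 of hours, 2 without the 72 hours array and 7 with the controls added at 0 hours. The values that changed sign were all small and not called: *Ccng1* early against control ranged from -0.021 (without the 30 hours array) to 0.33 with 1 array left out, *Aen* late against early from -0.093 (without that of 18 hours; -0.051 and -0.043 without those of 24 and 48 hours) to 0.18, and the slope of *Sesn1* from -0.018 to 0.0065 per hour (without that of 6 hours).

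*Phlda3* and *Sesn1* also lost the late against early call when only those groups were fitted (adjusted p = 0.0566 and 0.0659), and *Sesn1* with background subtracted (0.0545) or a trended and robust variance (0.053). *Btg2* with TG lost it with no filter (0.0604). *Mdm2* early gained a call with only the groups compared in the fit (0.0178), as did *Cdkn1a* with background subtracted (-0.61, 0.023) and *Aen* for TG against the α-LA arrays of 18 and 24 hours (0.0274). All p are from limma, and the cause was not tested. Of all probes, 1256 were called from early to late, against 829 with only those groups in the fit, 704 without the 42 hours and 784 without the 48 hours array. With TG 3484 were called, and 2306 without its 18 hours array. For TG against early α-LA the number was 2530, and 1276 or 1370 without 1 TG array. For the slope it was 5, with 0 to 131 when 1 array was left out 1 to 349 under the other settings and 2105 with the controls at 0 hours. No analysis paired by replicate number was possible because only the controls carry one. The bead signals near 150 of *Cdkn1a* and *Tp53inp1* limit the size that can be given for their changes.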
